A study of Mus musculus with 12 samples.

Results

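The comparison described here sets the middle passage of each NIH3T3 line against the passages before and after it. It covers 4 middle libraries and 8 outer libraries out of 12 libraries in the series, and all 14704 genes that passed a filter on low counts out of 48795 in the deposited table. NIH3T3 is an established mouse embryonic fibroblast line. The wild-type parental line contributed passages 6, 7 and 8, and 3 AEBP1 knockout lines, named F5, G5 and H7, were each taken at passages 7, 8 and 9. The medium was DMEM/F12 with 10% serum for every line, and no other agent is named. The parental line is not described as cloned, whereas each knockout line is a clonal derivative, so that cloning and loss of Aebp1 cannot be told apart between lines. The edited position, the cell density and the time since feeding at harvest are not stated in the labels. Nothing in the labels says that the passages of a line are separate cultures, or that passages of the same number were handled together. The p-values below therefore speak only to the spread among these 12 samples, which may be technical.

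The split into middle and outer passages was chosen by the measured spread of these same 12 libraries, in which the second library of every line had stood apart from the other 2. Sizes and counts for middle against outer passages are therefore a description of how these libraries differ, and no p-value is given for them. A gene is called past the descriptive threshold where its adjusted p in edgeR's fit with line as a block was under 0.05. Differences of this shift between lines are described by the same threshold and also carry no p-value. Tests are given for the third against first passages and, for a few genes, the level of the clones against that of the parental line. Neither compares middle with outer passages. The choice rested on the second library standing apart from the first and the third, so the test between these is not fully independent of it.

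Cultured fibroblasts move between a dividing state and a resting state, called quiescence, according to growth factors, space and contact with neighbours. In the dividing state, E2F factors drive the genes of DNA replication, and the MuvB complex with B-Myb and FOXM1 drives the genes of G2 and mitosis. In the resting state, the pocket proteins p130 and p107 join MuvB in the DREAM complex, which holds both sets of genes down. NIH3T3 cells are a classic model of this switch: genes named growth arrest-specific, or Gas, were first collected as transcripts that build up in resting cells of this line, and genes of the proliferin family were first found as transcripts induced by serum in mouse fibroblasts.

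Total estimated counts ran from 22088695 to 31329735 per library, with the middle libraries at both ends of that range, so depth did not order the passages. Of 20 fibroblast markers 19 passed the filter, and their summed level was 24805 to 31457 CPM (estimated counts scaled to the library total) in the middle libraries and 24679 to 29477 CPM in the outer libraries. Markers of each other cell type summed to at most 78.9 CPM in any library. The summed level of 14 epithelial markers was 0.83 to 1.68 CPM in the middle and 0.771 to 2.11 CPM in the outer libraries, and Epcam, Cldn3, Cldn4 and Cldn7 had no count in any library. The 14 immune markers summed to 6.53 to 7.41 CPM in the middle and 4.96 to 8.05 CPM in the outer libraries, with Adgre1, Cd3e, Cd3g and Tyrobp at 0. The 12 endothelial markers summed to 8.62 to 16.3 CPM and 8.24 to 14.8 CPM, with Kdr, Tie1 and Cldn5 at 0. The 12 skeletal muscle markers summed to 1.76 to 2.76 CPM in the middle and 0.716 to 2.47 CPM in the outer libraries, with Myod1, Myog, Myf5 and Pax7 at 0. Adipocyte markers, 10 in all, summed to 30.6 to 56.8 CPM in the middle and 15.0 to 31 CPM in the outer libraries, with Cidec, Lep and Cebpa at 0. Neural markers, 12 in all, summed to 21.9 to 54.9 CPM in the middle and 27.4 to 78.9 CPM in the outer libraries, with Aqp4, Olig2 and Sox10 at 0. Of the 7 neural markers tested 2 were lower past the threshold and 0 higher, against 13.7% of all genes lower. These were Nes (shift -1.05) and Tubb3 (-0.93), each lowest at the middle passage in all 4 lines. Aebp1, the targeted gene, encodes a secreted collagen-binding protein, and its levels over successive passages were 613, 467 and 579 CPM for the parental line, 214, 175 and 189.6 for F5, 138, 124 and 123 for G5 and 158, 131 and 153 for H7. Every clone library lay below every parental library, by a log2 difference of -1.84 ± 0.06 in edgeR's quasi-likelihood test (adjusted p = 2.65e-08). Its transcript remained countable in all 9 clone libraries, and its middle library was the lowest of its line in 3 lines, with a shift of -0.22 ± 0.06.

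Once the mean of each line had been removed, the first principal component of the 12 libraries held 38.7% of the remaining variance and the second 12.7%. On the first component the middle libraries stood at 48.8 for the parental line, 25.2 for F5, 27.2 for G5 and 16.5 for H7. First passages stood at -31.8, -23.6, -26.8 and -20.1, and the third passages at -17.0, -1.63, -0.401 and 3.63, in the same order of lines. The middle library was thus the highest of every line, and the third passage lay between first and middle. It lay about midway in F5 and G5, nearer to the middle in H7 and nearer to the first in the parental line. These positions are a description of the spread on which the split was chosen.

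**Figure D1:**
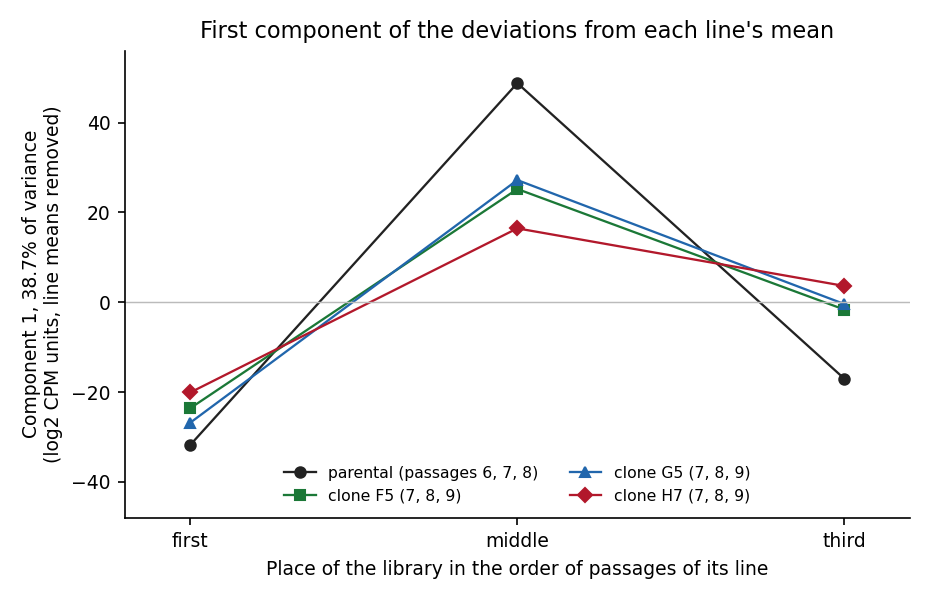
Position of each library (y axis, log2 CPM units) on the first principal component of the deviations from its line's mean, by place in the order of passages (x axis), for the parental line and clones F5, G5 and H7. The middle libraries stand at 16.5 to 48.8, above the first and the third libraries of the same line, and the third libraries lie between the others.

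Of the 14704 genes tested, 2041 (13.9%) were past the threshold with a higher level in the middle passage and 2020 (13.7%) with a lower level. The median size of the shift of these genes was 0.33 on the log2 scale, so most differences were modest. Among them 227 were over 2-fold higher and 57 over 2-fold lower in the middle passage. The median size of the shift of the same genes was 0.52 for the parental line, 0.29 for F5, 0.31 for G5 and 0.19 for H7. Without any model, the middle library was the highest of 3 in all 4 lines for 1946 genes (13.2%) and the lowest in all 4 lines for 1961 genes (13.3%). All genes tested had a median shift of 0.01. Of the within-line sum of squares, 60.9% lay between middle and outer passages when each line had its own shift, and 31.5% lay on a shift common to the 4 lines. Libraries that differed at random would give 50% and 12.5% by the degrees of freedom alone, before any choice of split. Among the gene lists described below, those of DNA replication, mitosis, histones and ribosome assembly held mostly lower members. Lists of matrix, complement, IGF, interferon-stimulated and growth arrest genes held more higher than lower members. Every list count below is to be read beside the shares of all genes, 13.9% higher and 13.7% lower. A count near these shares does not set a list apart. Counts of genes past the threshold were smaller by over 1.5 times without parental passage 7 (1074 higher and 1222 lower), without F5 passage 8 (1290 and 1307) and without G5 passage 8 (1183 and 1266).

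The promoters of 4 cell cycle genes are shown because nearly all genes of DNA replication and of mitosis were lower in the middle passage, and these classes are known to carry different promoter elements. Each line gives the 150 bases before the RefSeq gene start on the gene's own strand, from RefSeq on GRCm38.p6, with matches in capitals. Capitals mark matches to any of 3 motifs, each searched on both strands. The cell cycle homology region, a site known to be bound by MuvB complexes, was searched as TTTGAA. The box bound by NF-Y was searched as CCAAT and reads in reverse where it lies on the other strand, and the E2F site was searched as TTTNGCGC. Prim1 and Rfc3 are DNA replication genes, and Kif23 and Ccnf act in cell division and G2.
Prim1, chr10:128015065-128015214, plus strand: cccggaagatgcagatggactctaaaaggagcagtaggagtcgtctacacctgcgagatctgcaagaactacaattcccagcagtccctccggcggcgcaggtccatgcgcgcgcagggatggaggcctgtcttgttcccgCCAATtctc
Rfc3, chr5:151651209-151651358, minus strand: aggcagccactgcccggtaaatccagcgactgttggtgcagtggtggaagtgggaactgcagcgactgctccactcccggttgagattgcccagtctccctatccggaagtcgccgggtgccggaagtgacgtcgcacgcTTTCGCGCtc
Kif23, chr9:61946800-61946949, minus strand: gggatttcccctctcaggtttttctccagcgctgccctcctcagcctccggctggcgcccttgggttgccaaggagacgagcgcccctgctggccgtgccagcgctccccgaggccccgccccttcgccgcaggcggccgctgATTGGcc
Ccnf, chr17:24251410-24251559, minus strand: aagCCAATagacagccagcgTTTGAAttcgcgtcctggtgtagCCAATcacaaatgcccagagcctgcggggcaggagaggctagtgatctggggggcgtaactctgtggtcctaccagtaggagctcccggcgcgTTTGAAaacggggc
The Rfc3 window held an E2F match close to its start. The Ccnf window held 2 cell cycle homology matches and 2 CCAAT boxes. In Kif23 and Prim1 the 150 bases held a CCAAT box only, and the longer window of Kif23 described next also held a cell cycle homology match.

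Over windows of 250 bases before to 50 bases after the start, 52 of the 64 genes of the G2 and mitosis list matched an entry, with 56 promoters. The cell cycle homology letters stood in 73.2% of these, against 17.9% of all 32851 RefSeq promoters and 12.1% of the 12652 promoters of genes tested. A CCAAT box stood in 76.8% of the G2 and mitosis promoters, against 37.4% of all promoters and 38.3% of those of genes tested, and an E2F site in 8.93%, against 1.38% and 2.36%. For the DNA replication and S-phase list, 44 of 55 genes matched, with 53 promoters, of which 28.3% held an E2F site, 60.4% a CCAAT box and 13.2% the cell cycle homology letters, the last close to the share among genes tested. The cell cycle homology and E2F motifs share their first 3 letters but cannot start at the same base, and a match describes the letters of the window, not a bound site. Ccne2 and Foxm1, named below, had no entry.

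Genes of DNA replication were lower in the middle passage of every line. Of 55 listed genes all were tested, 51 were past the threshold with a lower level and 0 with a higher level, and 46 had their lowest library at the middle passage in all 4 lines. The share of all genes that were lower past the threshold was 13.7%. The median shift was -0.42, and by line it was -0.66 for the parental line, -0.44 for F5, -0.44 for G5 and -0.14 for H7. Summed over the list, the level over successive passages was 3862, 2369 and 3751 CPM for the parental line, 3900.3, 2852 and 3783 for F5, 3947, 2813 and 3706 for G5 and 3634, 3267 and 3602 for H7. The middle library thus held 62.2% of the mean outer level for the parental line, 74.2% for F5, 73.5% for G5 and 90.3% for H7, and no middle library overlapped an outer library of any line. In a bulk sample, fewer cells in S phase and less of these transcripts per cell cannot be told apart.

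Prim1, the catalytic subunit of the primase that starts each new DNA strand, was measured at 38.6, 25.3 and 38.6 CPM for the parental line, 37.4, 26.2 and 38.3 for F5, 39, 26.2 and 37 for G5 and 29.8, 24.5 and 32.3 for H7. The middle library was the lowest in each line, and the shift was -0.50 ± 0.05. Ccne2, the cyclin E2 that activates CDK2 at the G1/S boundary, stood at 21, 10.5 and 19 CPM for the parental line, 21.6, 11 and 18.8 for F5, 19.5, 11.5 and 19.5 for G5 and 18.9, 14.7 and 20.1 for H7. Its shift was -0.73 ± 0.08, and the middle libraries did not overlap the outer libraries. Rfc3, a subunit of the clamp loader, had a shift of -0.44 ± 0.06, with 18.3 to 24.3 CPM in the middle libraries and 24.8 to 31.2 CPM in the outer libraries. The 4 members not past the threshold were Cdt1 (-0.26), Rfc4 (-0.21), Rpa3 (-0.04) and Dut (-0.23), all with lower fitted levels. No member passed the test between the third and the first passages.

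G2 and mitosis genes gave nearly the same picture. All 64 were tested, 58 were lower past the threshold and 0 higher, and 54 had the lowest library at the middle passage in all 4 lines. The median shift was -0.39, and by line -0.54 for the parental line, -0.40 for F5, -0.47 for G5 and -0.17 for H7. The summed level was 5766, 4385 and 6081 CPM for the parental line, 5467, 4387 and 5869 for F5, 5807, 4278 and 6045 for G5 and 5339.6, 5046 and 5682 for H7, so that the middle library held 74%, 77.4%, 72.2% and 91.6% of the outer mean in these lines. Foxm1, the factor that with B-Myb drives this class, was measured at 152, 100.3 and 151 CPM for the parental line, 158, 116 and 158 for F5, 159, 98 and 159 for G5 and 123, 101 and 123 for H7. The middle libraries lay close together, below every outer library, and the outer libraries of H7 lay below those of the other lines. The shift of Foxm1 was -0.50 ± 0.06. Kif23, the kinesin of the central spindle needed for cytokinesis, had a shift of -0.47 ± 0.05, with 34.9 to 36.5 CPM in the middle libraries and 41.5 to 52.8 CPM in the outer libraries. Ccnf, the F-box protein cyclin F, had a shift of -0.46 ± 0.05, with 45.1 to 50.6 CPM in the middle libraries and 56 to 72.8 CPM in the outer libraries. Gtse1, a microtubule-associated protein of G2 and S phase, ranged more between lines, with 39.7, 19.5 and 42 CPM for the parental line, 59.3, 36.3 and 61 for F5, 56.8, 31 and 56.6 for G5 and 69.6, 53 and 66.5 for H7, and had a shift of -0.74 ± 0.09. The 6 members not past the threshold were Cdc25b, Spc24, Spc25, Top2a, Ckap5 and Pimreg, with fitted shifts from -0.30 for Spc24 to -0.11 for Top2a.

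Replication-dependent histone genes, whose transcripts are made in S phase, were 66 in the list, of which 60 were tested. Of these 55 were lower past the threshold and 0 higher, with a median shift of -0.47 (-0.76 for the parental line, -0.48 for F5, -0.45 for G5 and -0.14 for H7). Their summed level was 8353, 5186 and 8611 CPM for the parental line, 7848, 5577 and 7821 for F5, 7617, 5501 and 7357 for G5 and 6862, 6262 and 7085 for H7. These libraries were made from total RNA after ribosomal RNA depletion, which keeps histone transcripts that lack a poly(A) tail. Many histone genes are near-identical, so reads may have been split between copies and the single values are uncertain. Hist4h4 stood at 380.5, 262 and 459 CPM for the parental line, 370.0, 226 and 376 for F5, 343, 213 and 374 for G5 and 301, 244 and 318 for H7, a shift of -0.62 ± 0.07. Hist1h3g had a shift of -0.67 ± 0.09 and Hist2h4 of -0.54 ± 0.07, and in both the middle library was the lowest of each line. The members not past the threshold were Hist1h2ao (-0.60), Hist1h2bq (-0.28), Hist1h4m (-0.20), Hist2h2ab (-0.14) and Hist2h2be (-0.07).

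**Figure D2:**
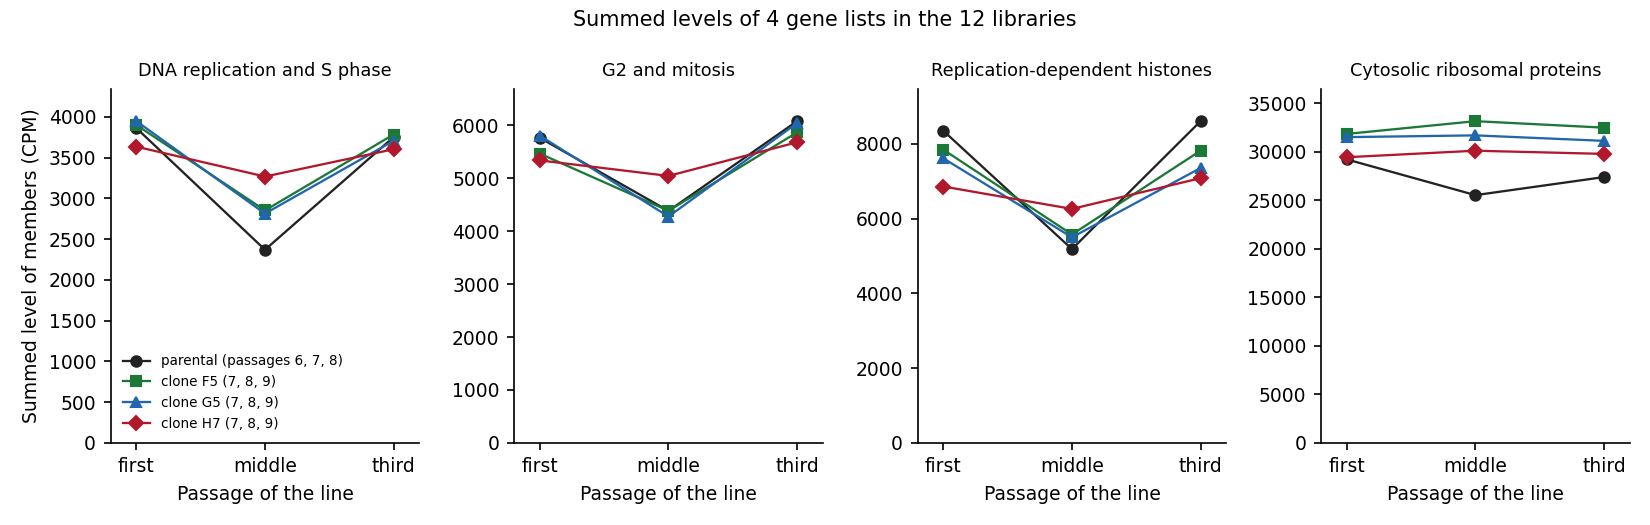
Summed level of the tested members (y axis, CPM from 0) of 4 gene lists in each library, by place in the order of passages (x axis), with a line for the parental line and each clone. For S phase, G2 and mitosis and histones the middle library is the lowest of each line, least so in H7, while the cytosolic ribosomal protein sum is lowest at the middle passage in the parental line only.

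Regulators upstream of these genes were more divided. Of 11 D cyclins and G1 kinases 6 were lower past the threshold and 0 higher. Ccnd1, cyclin D1, which couples growth factor signals to entry into the cycle, was measured at 169, 40.6 and 121 CPM for the parental line, 248, 159.8 and 216 for F5, 247, 142 and 182 for G5 and 255, 162 and 182 for H7. The middle library was the lowest of each line, with a shift of -0.80 ± 0.21 that ran from -0.41 in H7 to -1.82 in the parental line. Cks2, a small subunit of the cyclin-dependent kinases, had a shift of -0.44 ± 0.08, and Cdk2 of -0.26 ± 0.06. Skp2, the F-box protein that targets p27 for breakdown, had a shift of -0.28 ± 0.07, with the middle library lowest in 3 of 4 lines. Of 15 tested CDK inhibitors, pocket proteins and DREAM subunits, 1 was higher and 5 were lower past the threshold. The inhibitor Cdkn1a, or p21, was lower, at 56.8, 26 and 52.1 CPM for the parental line, 151, 118 and 144 for F5, 131, 92.6 and 118 for G5 and 156, 116 and 129 for H7, a shift of -0.50 ± 0.11. Cdkn1b, or p27, which builds up in resting cells mainly at the protein level, had a shift of 0.14 ± 0.09 and was not past the threshold. The pocket protein p107 gene Rbl1 was lower (-0.33 ± 0.07), the p130 gene Rbl2 had 0.11 ± 0.11 and was not past the threshold, and Rb1 was higher by 0.25 ± 0.07. Lin54 and Lin9, subunits of MuvB, were lower (-0.44 ± 0.06 and -0.32 ± 0.09).

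Many genes of cell growth were lower, most of all in the parental line. Of 44 MYC targets and ribosome assembly factors 27 were lower past the threshold and 0 higher, with a median shift of -0.33, which was -0.75 for the parental line, -0.22 for F5, -0.19 for G5 and -0.15 for H7. Pa2g4, a growth-regulated nucleolar protein, was measured at 273, 121 and 228 CPM for the parental line, 258, 189.7 and 239 for F5, 264, 191 and 237 for G5 and 232, 185 and 222 for H7, with a shift of -0.52 ± 0.11. Utp20, a factor of small ribosomal subunit assembly, had a shift of -0.46 ± 0.08, and Eif4e, the cap-binding initiation factor, -0.33 ± 0.06. Ubtf, the RNA polymerase I factor, had -0.24 ± 0.04, with its middle library the lowest in all 4 lines. Nolc1 and Hspd1 of this list were past the threshold for parental minus clone shifts, at -0.79 ± 0.11 and -0.80 ± 0.12. Myc itself had a shift of -0.40 ± 0.14. Against the third passages alone, a comparison added after the data were seen, 0 members were lower past the threshold (median -0.24), and against first passages alone 34 were (median -0.42).

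Structural proteins of the ribosome were mostly not past the threshold. Of 77 cytosolic ribosomal protein genes, 1 was higher and 2 were lower past the threshold, with a median shift of -0.03. By line the median was -0.19 for the parental line, 0.03 for F5, 0.00 for G5 and 0.02 for H7, and it was 0.02 in a fit of the clone libraries alone. Rpl27 was lower (-0.43 ± 0.10) and so was Rpl5 (-0.22 ± 0.07). Rpl22 had 0.20 ± 0.05 from counts, but its sign turned in both fits of the deposited TPM values, at -0.04, so no direction is given for it. Many processed pseudogenes share the sequence of ribosomal protein genes, which leaves single values uncertain.

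Stress and redox genes were more often lower than higher. The NRF2 and glutathione list, genes that keep up NADPH and reduced thiols, had 14 of 31 tested members lower and 1 higher, with a median of -0.20. Txnrd1, thioredoxin reductase, was measured at 318, 169.9 and 331 CPM for the parental line, 290.3, 204 and 285 for F5, 303, 221 and 289.5 for G5 and 236, 193 and 219.7 for H7, with a shift of -0.52 ± 0.09. Pgd and G6pdx, NADPH-producing enzymes of the pentose phosphate pathway, had -0.50 ± 0.06 and -0.47 ± 0.08, and Prdx1, a peroxiredoxin, -0.41 ± 0.06. Of 32 tested p53 targets 15 were lower and 2 higher. The lower ones included Cdkn1a, already named, and Pidd1 (-0.58 ± 0.10), together with Ckap2 (-0.40 ± 0.05), a mitotic spindle protein that also belongs to the cell cycle, and the DNA polymerase gene Polk (-0.35 ± 0.06). Of 23 tested heat shock genes 10 were lower and 0 higher, among them Hsp90aa1 (-0.29 ± 0.07), Hsp90ab1 (-0.23 ± 0.06) and the HSP90 cochaperone Ahsa1 (-0.46 ± 0.08). Against the third passages alone 1 NRF2 and glutathione gene, 3 p53 targets and 1 heat shock gene were lower past the threshold, with medians of -0.18, -0.14 and -0.15. ER chaperones (3 lower and 1 higher of 23) and the ATF4 and amino acid response (3 lower and 4 higher of 44) were near or below the share of all genes. Metallothionein Mt2, which binds zinc and copper, stood at 9.62, 1.93 and 8.26 CPM for the parental line, 7.74, 4.71 and 10 for F5, 8.48, 3.22 and 9.25 for G5 and 21.4, 5.75 and 17 for H7, a shift of -1.53 ± 0.17.

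Growth factor response genes held some of the largest differences. Prl2c2 and Prl2c3, proliferin genes that encode secreted prolactin-family glycoproteins, lie at chr13:12996125-13005383 and chr13:12790816-12800079 on GRCm38. Prl2c2 was measured at 96.1, 9.47 and 53.4 CPM for the parental line, 65.1, 9.04 and 27.8 for F5, 35.7, 5.35 and 19.6 for G5 and 78.6, 11.2 and 26.2 for H7, a shift of -2.48 ± 0.37. Prl2c3 stood at 35.8, 2.01 and 17.6 CPM for the parental line, 10.3, 1.07 and 2.31 for F5, 4.63, 0.499 and 1.59 for G5 and 15, 0.994 and 3.38 for H7, a shift of -3.15 ± 0.61. In both genes the middle library lay far below the other 2 of each line, and the third below the first. The genes of this family are near-identical, so the split of reads between them is uncertain. Only 2 of 5 listed proliferin genes passed the filter.

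Fgf2, a basic fibroblast growth factor that these cells make themselves, was measured at 15.3, 2.33 and 14.3 CPM for the parental line, 7.58, 2.57 and 7.87 for F5, 14.2, 5.4 and 9.92 for G5 and 19.6, 10.4 and 14.6 for H7, a shift of -1.42 ± 0.24. Ccn2, or connective tissue growth factor, a matricellular protein and YAP target, stood at 182, 51 and 201 CPM for the parental line, 135, 47.1 and 119.9 for F5, 172, 58.5 and 130.4 for G5 and 179, 144 and 174 for H7, a shift of -1.21 ± 0.21 that ran from -0.29 in H7 to -1.91 in the parental line. In H7 the middle library of Ccn2 lay only slightly under its outer libraries, and in the other lines it lay far under them. More members of the YAP and TEAD list were higher (9 of 27) than lower (2), so Ccn2 did not stand for the list. The other 16 were not past the threshold, and the median shift was 0.13. Summed over this list, the middle library held 103.4% of the outer mean for the parental line, 97.4% for F5, 94.9% for G5 and 107.4% for H7. Its higher members included Ndrg1 (0.78 ± 0.10), Rbms3 (0.44 ± 0.07) and the type II TGF-beta receptor Tgfbr2 (0.62 ± 0.10). Among contractile genes and other SRF targets 2 of 26 were higher, Lmod1 (1.12 ± 0.17) and Smtn (0.40 ± 0.07), and 6 were lower, among them Tagln2 (-0.37 ± 0.09) and Vim (-0.28 ± 0.05). Of 33 tested TGF-beta and BMP genes 9 were lower and 3 higher. Id2 and Id3, inhibitors of basic helix-loop-helix factors and BMP targets, were lower (-0.44 ± 0.06 and -0.57 ± 0.10), and so was the receptor-regulated Smad9 (-1.39 ± 0.25).

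Receptors were among the higher genes. Pdgfra, the alpha receptor for platelet-derived growth factor, was measured at 221, 951 and 299 CPM for the parental line, 135, 370.4 and 233 for F5, 147, 424 and 298 for G5 and 117, 242 and 208 for H7, a shift of 1.12 ± 0.25. The middle library was the highest of each line, with the third above the first. Egfr, the epidermal growth factor receptor, stood at 9.97, 57.7 and 11.8 CPM for the parental line, 0.728, 1.41 and 0.771 for F5, 0.212, 0.363 and 0.239 for G5 and 1.07, 3.79 and 3.03 for H7, a shift of 1.61 ± 0.30, and was scarce in the clones. Over the whole list of growth factor receptors and ligands 7 of 27 tested members were higher and 6 lower.

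Immediate early and ERK feedback genes were split, with 10 of 35 higher and 9 lower. Spry1, an inhibitor of receptor tyrosine kinase signalling, was measured at 6.62, 18.5 and 9.84 CPM for the parental line, 7.28, 14.9 and 8.33 for F5, 5.8, 13 and 7.57 for G5 and 5.89, 12.5 and 7.79 for H7, a shift of 0.98 ± 0.12. The related Spred3 was higher (0.40 ± 0.07), while Spry2 (-0.35 ± 0.07), the ERK phosphatases Dusp4 (-0.82 ± 0.28) and Dusp6 (-0.40 ± 0.09) and the factors Fosl1 (-0.70 ± 0.20), Jun (-0.35 ± 0.08) and Klf6 (-0.33 ± 0.07) were lower. Fos, the prototype of serum-induced transcripts, had -0.09 ± 0.23 and was not past the threshold.

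**Figure D3:**
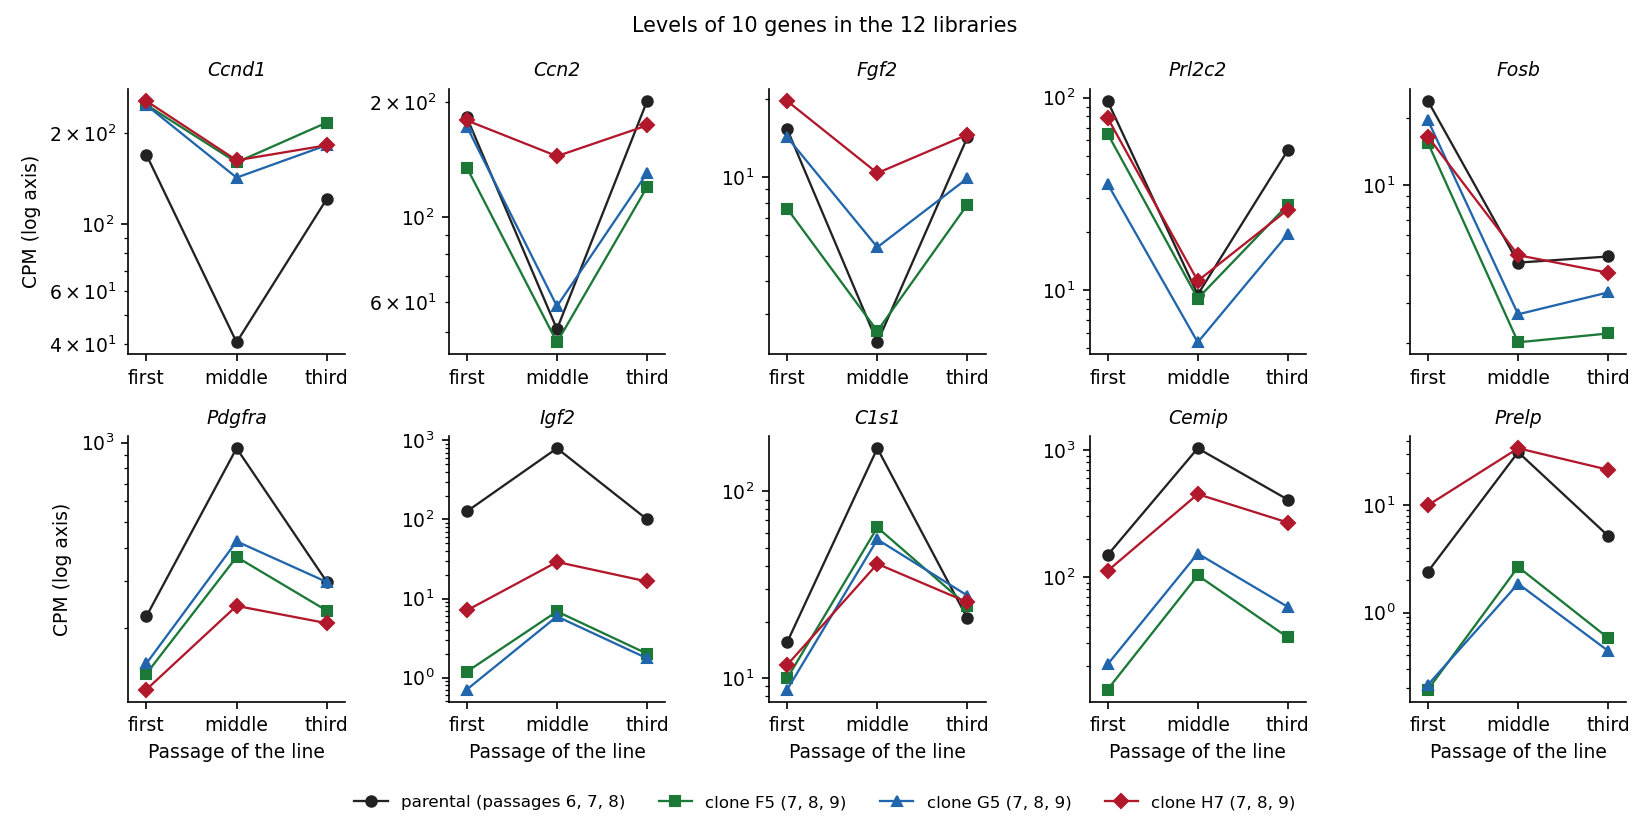
Level of 10 genes (y axis, CPM, log axis with its own range in each panel) in each library, by place in the order of passages (x axis), with a line for the parental line and each clone. In the upper row Ccnd1, Ccn2, Fgf2 and Prl2c2 are lowest at the middle passage in every line, while Fosb is high at the first passage only; in the lower row Pdgfra, Igf2, C1s1, Cemip and Prelp are highest at the middle passage in every line.

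Growth arrest genes were higher in part. Of 36 listed 35 were tested, and 11 were higher and 4 lower past the threshold, with a median of 0.22. Sesn3, a FOXO target that restrains mTORC1, was measured at 112, 310.1 and 134 CPM for the parental line, 71.7, 145 and 102 for F5, 67.5, 139 and 106 for G5 and 136, 229 and 188 for H7, a shift of 0.82 ± 0.16. The middle library was the highest of each line. Klf9, a Kruppel-like repressor, had a shift of 0.34 ± 0.05, and Gas6, the ligand of the TAM receptors and a member of the original growth arrest-specific set, 0.63 ± 0.21. The small leucine-rich proteoglycans Dcn (0.90 ± 0.23), Ogn (0.85 ± 0.18) and Lum (0.78 ± 0.18) were higher, as was Btg2 (0.46 ± 0.15), an antiproliferative gene. Gas1 (0.37 ± 0.17), the classic block to S phase of this line, and Gas2 (0.20 ± 0.12) were not past the threshold. Lower members were Klf2 (-0.69 ± 0.14), Klf4 (-0.52 ± 0.11), Gadd45g (-0.33 ± 0.11) and the Notch target Hes1 (-1.07 ± 0.24). Of 24 tested FOXO targets 8 were higher and 2 lower. They included Foxo4 (0.41 ± 0.07), the insulin receptor Insr (0.36 ± 0.08) and the autophagy gene Map1lc3b (0.30 ± 0.06), each highest at the middle passage in all 4 lines. Against the third passages alone, 1 growth arrest gene and 0 FOXO targets were higher past the threshold.

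Igf2 and H19, oppositely imprinted neighbours on chromosome 7 (chr7:142650766-142666816 and chr7:142575529-142578143, GRCm38), were both higher at the middle passage of every line. Igf2, the fetal growth factor that is a ligand of the IGF receptors, was measured at 126, 796 and 100.3 CPM for the parental line, 1.19, 6.87 and 2.01 for F5, 0.707, 5.94 and 1.75 for G5 and 7.08, 29 and 16.4 for H7, a shift of 2.19 ± 0.27. H19, a non-coding RNA, stood at 25.5, 94.8 and 9.45 CPM for the parental line, 0.460, 3.8 and 0.926 for F5, 0.530, 2.09 and 0.478 for G5 and 1.19, 1.95 and 1.02 for H7, a shift of 2.10 ± 0.31. Levels in the parental line were far above those of the clones at every passage, by -5.66 ± 0.26 (clones minus parental, adjusted p = 4.35e-07, edgeR) for Igf2, and the middle library was the highest of its line at either level. Meg3, the maternal non-coding RNA of another imprinted cluster, stood at 740.2, 1363 and 809 CPM for the parental line, 619.5, 969 and 757 for F5, 595, 913 and 726 for G5 and 686, 869.7 and 843 for H7, a shift of 0.50 ± 0.10. Igf2r, the receptor that clears IGF2, had a shift of 0.37 ± 0.06. Pappa2, a protease that frees IGFs from their binding proteins, was measured at 2.5, 114 and 10.5 CPM for the parental line, 0.536, 5.43 and 1.81 for F5, 0.460, 9.48 and 3.67 for G5 and 2.83, 20.6 and 10.4 for H7, a shift of 2.73 ± 0.54. Of 25 tested imprinted genes 9 were higher and 1 lower, and of 18 tested genes of the IGF axis 8 were higher and 0 lower. These 2 lists share Igf2 and Igf2r.

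Secreted matrix genes were higher more often than lower, apart from the fibrillar collagens. Among 40 tested matrix proteins other than collagens 17 were higher and 4 lower, with a median of 0.28. Thbs1, thrombospondin 1, was measured at 613, 1048 and 719.9 CPM for the parental line, 392, 680.1 and 440.0 for F5, 628, 942 and 599 for G5 and 491, 975 and 548 for H7, a shift of 0.72 ± 0.06, and the shift in H7 (0.91) was above that in the parental line (0.66). Prelp, a small leucine-rich proteoglycan, stood at 2.42, 31.4 and 5.18 CPM for the parental line, 0.192, 2.67 and 0.579 for F5, 0.212, 1.86 and 0.438 for G5 and 10, 34.1 and 21.5 for H7, a shift of 2.23 ± 0.36. Mfap5, a microfibril protein, had a shift of 1.29 ± 0.14, with 6.26 to 18.1 CPM in the middle libraries and 2.23 to 8.68 CPM in the outer libraries. Ecm1 was lower, by -0.36 ± 0.06. Of 31 tested fibrillar collagens and their processing enzymes 4 were higher and 3 lower, near or below the shares of all genes (13.9% and 13.7%). The chains Col1a1 (-0.21 ± 0.09), Col1a2 (0.01 ± 0.07) and Col3a1 (0.31 ± 0.18) were not past the threshold, while the lysyl oxidase Loxl3 was lower (-0.53 ± 0.09) and the procollagen protease Adamts2 higher (0.70 ± 0.14).

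Matrix turnover genes held both higher and lower members. Cemip, a hyaluronan-degrading protein, was measured at 149, 1033 and 407 CPM for the parental line, 12.9, 103 and 33.4 for F5, 20.4, 153 and 58 for G5 and 112, 449 and 268 for H7, a shift of 1.82 ± 0.35. The middle library was the highest of each line and the third lay above the first. Of 23 tested matrix proteases and inhibitors 7 were higher and 2 lower. Mmp19 was higher (0.99 ± 0.16) and so was Timp4 (2.45 ± 0.40), which was scarce, with 0.258 to 1.78 CPM in the middle libraries and 0.0354 to 0.386 CPM in the outer libraries. At such outer levels Timp4 passed the filter on low counts only through its middle libraries. Its higher level there is thus partly a condition of its being tested. Timp1, a metalloprotease inhibitor, was lower in each line to nearly the same degree, at 72.4, 53.5 and 73.1 CPM for the parental line, 60, 45.7 and 58.5 for F5, 55.5, 42.1 and 52.8 for G5 and 81.4, 60.1 and 79.1 for H7, a shift of -0.40 ± 0.04. Serpine2, an inhibitor of thrombin and plasminogen activators, had no count in any H7 library and stood at 14.7, 36.4 and 10.6 CPM for the parental line, 2.41, 5.65 and 2.78 for F5 and 0.283, 0.680 and 0.438 for G5.

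About as many complement, chemokine and interferon-stimulated genes were higher as were not past the threshold, and no member was lower past it. Of 41 listed chemokines, cytokines and complement genes 20 were tested and 11 were higher. C1s1, the mouse gene of the complement protease C1s, was measured at 15.6, 170.4 and 20.8 CPM for the parental line, 9.96, 64.1 and 24.4 for F5, 8.66, 55.3 and 27.6 for G5 and 11.7, 40.9 and 25.4 for H7, a shift of 2.03 ± 0.37. Its partner protease C1ra stood at 24, 115 and 26.3 CPM for the parental line, 25, 56.7 and 34.4 for F5, 20.2, 47.1 and 29.6 for G5 and 16.6, 37.2 and 29 for H7, a shift of 1.23 ± 0.23. C3, the central complement component, was scarce, at 0.850, 16.1 and 2.06 CPM for the parental line, 0.345, 3.67 and 1.2 for F5, 0.247, 2.54 and 1.16 for G5 and 0.517, 3.46 and 2.75 for H7, a shift of 2.27 ± 0.48. C1ra and C1rb are close relatives, so their reads may have been split. Against the third passages alone 0 of these 20 genes were higher past the threshold, and the median was 0.23. Of 38 interferon-stimulated genes 23 were tested and 12 were higher, with a median of 0.31, which was 0.78 for the parental line, 0.33 for F5, 0.27 for G5 and 0.25 for H7. In the clone libraries alone, without the parental line, 4 of the 23 were higher past the threshold (median 0.21), and against the third passages alone 2 were (median 0.30). Ifi44 stood at 1.79, 14.3 and 2.5 CPM for the parental line, 0.766, 3.01 and 1.81 for F5, 0.742, 3.08 and 2.15 for G5 and 1.51, 5.75 and 3.23 for H7, a shift of 1.66 ± 0.34. Ifi27 (0.53 ± 0.08), Bst2 (0.88 ± 0.16) and Ifit1 (1.25 ± 0.22) were highest at the middle passage in all 4 lines, and Ifit1 and Bst2 were at most 1.55 and 3.72 CPM. Because the filter on low counts kept only the more abundant members of both lists, their shares are not those of all members.

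**Figure D4:**
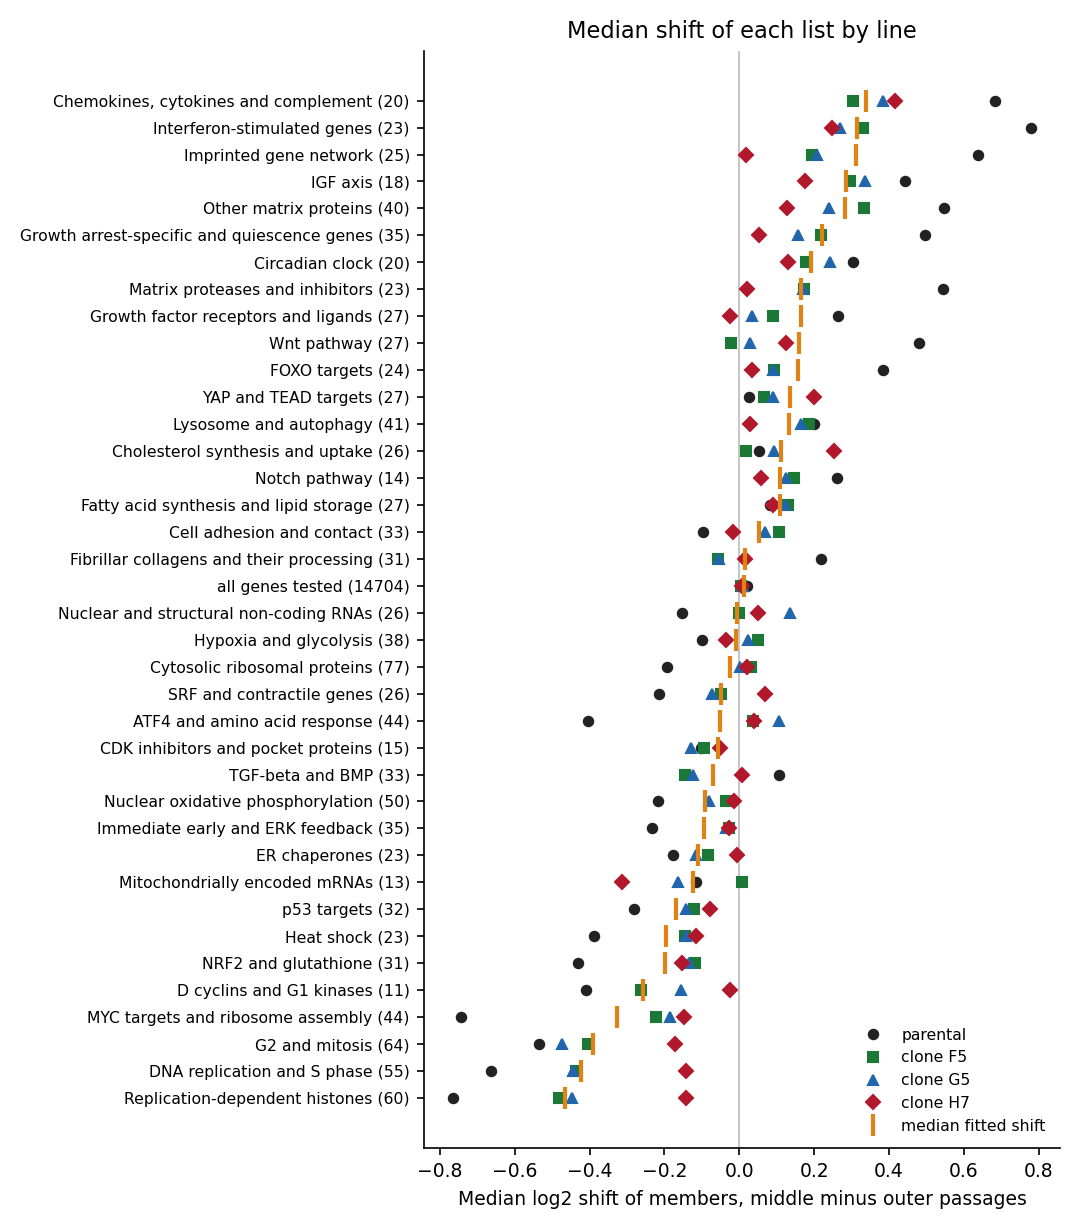
Median log2 shift of the tested members (x axis, middle minus outer passages) for each list with at least 10 tested members (y axis, number tested in parentheses), with a symbol for each line and a bar for the median of the fitted shifts. Histones, S phase and G2 and mitosis lie lowest, at fitted medians of -0.47, -0.42 and -0.39, all genes tested lie at 0.01, and the parental line mostly lies farthest from 0.

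Metabolic genes were mixed. Of 38 tested genes of hypoxia and glycolysis 6 were higher and 6 lower, near the shares of all genes (13.9% and 13.7%). Hif1a (0.38 ± 0.04) and the vasodilator peptide gene Adm (1.43 ± 0.18) were higher, and the glycolytic enzyme Eno1 was lower (-0.33 ± 0.05). In the nuclear respiratory chain list 9 of 50 genes were lower, among them cytochrome c (Cycs, -0.58 ± 0.09), and 3 were higher. The lower count was only slightly above the share of all genes. In the clone libraries alone 1 member of this list was lower past the threshold, and the count was also 1 against either outer passage alone. Fasn, fatty acid synthase, was lower, at 664, 404 and 611 CPM for the parental line, 483, 369 and 474 for F5, 495, 360.1 and 431 for G5 and 542, 452 and 466 for H7, a shift of -0.38 ± 0.08. Abca1, the cholesterol exporter, was higher, at 1.92, 11.6 and 2.64 CPM for the parental line, 0.192, 1.79 and 0.270 for F5, 0.141, 1.22 and 0.399 for G5 and 4.98, 10.9 and 7.79 for H7, a shift of 1.86 ± 0.30. The cholesterol synthesis and uptake list had 3 of 26 tested members higher and 1 lower, near or below the shares of all genes. The factors Cebpb (0.60 ± 0.08) and Cebpd (1.22 ± 0.22) were higher. Lipoprotein lipase Lpl was higher too (0.91 ± 0.19), with 21.8 to 53.4 CPM in the middle libraries and 13.4 to 28.5 CPM in the outer libraries. Lpl is 1 of the 10 adipocyte markers and made up most of their sum of 30.6 to 56.8 CPM against 15.0 to 31 CPM. Lpl was the 1 adipocyte marker past the threshold, and Cidec and Cebpa stayed at 0. Adipoq, Plin1, Fabp4 and Pparg did not pass the filter on low counts. Of 41 tested lysosome and autophagy genes 15 were higher and 1 was lower, with a median shift of 0.13. Higher members included Grn (0.37 ± 0.08) and Asah1 (0.24 ± 0.05), and the largest shift was that of Ctso (0.90 ± 0.15). Clock and clock output genes were higher in 8 of 20 cases, among them Per1, at 51.4, 80 and 49.7 CPM for the parental line, 38.2, 56.6 and 35.4 for F5, 40.8, 64.5 and 33.8 for G5 and 52.4, 79.9 and 58.5 for H7 (shift 0.65 ± 0.06), and Per3 (0.72 ± 0.13).

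Contact and developmental genes moved both ways. Nectin2, an adhesion receptor of cell junctions, was higher, at 16.8, 41.4 and 18.3 CPM for the parental line, 13.4, 23.3 and 12.5 for F5, 14.2, 32 and 15.7 for G5 and 21.1, 31 and 20.7 for H7, a shift of 0.94 ± 0.09. Cdh2, N-cadherin, was lower (-0.73 ± 0.15). The cell adhesion list had 7 members higher and 7 lower of 33. Of 27 tested Wnt genes 7 were higher and 1 lower, with the secreted modulator Dkk2 at 1.65 ± 0.22. The median shift of the Wnt list was 0.48 for the parental line, -0.02 for F5, 0.03 for G5 and 0.12 for H7. In the clone libraries alone 3 Wnt genes were higher and 2 lower (median 0.04), and against the third passages alone 1 was higher and 0 lower. In the Notch list the receptor Notch3 was higher (1.42 ± 0.27), and Hes1 and the receptor Notch4 (-1.66 ± 0.42) were lower. The nuclear and structural non-coding RNA list had 3 of 26 tested members higher and 0 lower, near or below the shares of all genes, with a median of -0.01. Among the higher ones, Malat1, which stays in the nucleus, stood at 11286, 17980.3 and 13009.8 CPM for the parental line, 14201, 21632 and 16718 for F5, 14504, 22634 and 17669 for G5 and 12859, 16741 and 15941 for H7, a shift of 0.44 ± 0.09, and Firre had 0.55 ± 0.08.

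The genes with the largest shift shared by all 4 lines, ranked on the smallest of the 4 shifts, were mostly scarce. Of the 12 higher ones Igf2, Pappa2, C3 and Cemip are given above. Hlf, a PAR-domain leucine zipper factor of the clock output, was measured at 1.88, 44.2 and 7.07 CPM for the parental line, 0.613, 8.66 and 2.47 for F5, 0.636, 19.2 and 4.94 for G5 and 1.23, 15.9 and 7.75 for H7, a shift of 2.64 ± 0.50. Trp63, the p53 relative p63, stood at 0.626, 17.6 and 3.34 CPM for the parental line, 0.0766, 2.57 and 0.887 for F5, 0.283, 4.22 and 1.43 for G5 and 1.75, 9.28 and 6.49 for H7, a shift of 2.26 ± 0.52. P2ry14, a receptor for UDP-glucose, had a shift of 1.54 ± 0.50, Slpi, a secreted protease inhibitor, 2.0 ± 0.35, and Gdf5, a BMP-family ligand, 1.73 ± 0.34. Optc (2.35 ± 0.47), Gdpd2 (2.81 ± 0.39) and Mycn (1.77 ± 0.35) completed the set. For Mycn the clone libraries F5 and G5 were at most 0.533 CPM and their first passages had no count, so its level could be followed in the parental line and H7 only, at 2.24, 11.1 and 4.04 and 0.637, 2.84 and 1.46 CPM.

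Of the 12 lower genes the proliferins, Smad9, Mt2 and Notch4 are given above. Fam19a5, a secreted chemokine-like protein, was measured at 5.01, 0.395 and 1.45 CPM for the parental line, 5.44, 0.596 and 2.7 for F5, 3.43, 0.0907 and 2.43 for G5 and 5.21, 0.442 and 2.01 for H7, a shift of -3.15 ± 0.48. Clones and parental line differed by 0.09 ± 0.44 (adjusted p = 0.898, edgeR), which did not pass the threshold. Tnnt2, cardiac troponin T, stood at 4.25, 0.0789 and 3.34 CPM for the parental line, 2.64, 0.220 and 1.12 for F5, 1.91, 0.0907 and 0.677 for G5 and 6.37, 1.25 and 3.15 for H7, a shift of -2.95 ± 0.51. Ripk2, a kinase downstream of NOD receptors, was more abundant, at 37.6, 9.24 and 22.7 CPM for the parental line, 45.8, 18.7 and 28.2 for F5, 38, 14.5 and 22 for G5 and 31.2, 15 and 24 for H7, a shift of -1.13 ± 0.21. Fyb (-1.72 ± 0.34), Shank2 (-1.57 ± 0.30), Cacna1i (-1.19 ± 0.17) and Bhlhe22 (-1.20 ± 0.26) had the middle library lowest in all 4 lines too. With 0.0907 to 1.40 CPM in its middle libraries, Fyb, like Tnnt2, passed the filter on low counts only through its outer libraries. The lower middle level of both genes is thus partly a condition of their being tested.

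Differences in the shift between lines are given as a description. The spread in that fit comes only from the first and the third libraries of each line, and the split was chosen because the middle library stood apart from those, so neither the shifts nor the spread is independent of the choice. Parental and mean clone shifts were apart past the threshold, an adjusted p under 0.05 in edgeR's interaction fit, for 72 genes (0.49% of those tested), 43 with a more positive and 29 with a more negative parental shift. In 57 of the 72 the shift had the same sign in the parental line and in the mean of the clones and was larger in the parental line. In 15 the signs were opposite, and in 0 was the clone shift the larger of the same sign. The fit rests on 1 middle library in the parental line, passage 7, with 4 residual degrees of freedom. The count was 421 in DESeq2, 333 with no filter on low counts, 59 in limma on log2(TPM + 1) and 0 in limma on log2(TPM + 0.1), where all 12 genes named from this comparison fell short of the threshold. Leaving out other libraries left 10 genes without parental passage 6, 1 without parental passage 8, 10 without F5 passage 7, 7 without F5 passage 9, 44 without G5 passage 7, 13 without G5 passage 9 and 135 without H7 passage 7.

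Genes with a more negative parental shift included several that hardly differed between passages in the clones. Dock8, an activator of the GTPase CDC42, was measured at 37.5, 5.57 and 41.6 CPM for the parental line, 34.2, 21 and 43.4 for F5, 54.3, 28.7 and 47.6 for G5 and 52.1, 32.4 and 49.3 for H7, a difference of shifts of -2.04 ± 0.20. All 4 lines were lowest at the middle passage, the parental line by far the most. Alcam, an adhesion molecule of the immunoglobulin family, stood at 45.5, 8.68 and 35.3 CPM for the parental line, 50.9, 50.1 and 59.7 for F5, 60.4, 46.7 and 60.3 for G5 and 120.0, 107 and 116 for H7, a difference of -2.0 ± 0.19. Inhba, a subunit of activin A, had a difference of -1.49 ± 0.23, and Parvb, an integrin-linked actin-binding protein, -1.23 ± 0.15. Sema5a, an axon guidance protein, and Fam110c had opposite signs in the parental line (-1.28 and -1.66) and in the clones, where they ran from 0.08 to 0.15 and from 0.02 to 0.36.

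Genes with a more positive parental shift included secreted proteins and receptors. Prokr1, the receptor of prokineticins, was measured at 3.89, 33.7 and 3.21 CPM for the parental line, 1.07, 3.17 and 1.23 for F5, 1.27, 1.86 and 1.91 for G5 and 0.955, 1.69 and 0.865 for H7, a difference of 2.39 ± 0.28. Adamts9, a secreted metalloprotease that cleaves proteoglycans, stood at 5.23, 31.3 and 3.56 CPM for the parental line, 2.26, 3.95 and 1.85 for F5, 1.98, 3.63 and 2.19 for G5 and 1.59, 2.43 and 1.34 for H7, a difference of 2.01 ± 0.28. Rora, a nuclear receptor of the clock, stood at 8.72, 53.5 and 10.8 CPM for the parental line, 5.78, 9.48 and 5.59 for F5, 6.68, 14.1 and 8.77 for G5 and 4.38, 7.99 and 5.43 for H7, a difference of 1.68 ± 0.22. Adamts9 and Rora were highest at the middle passage in every line. Cxcl12, the chemokine ligand of CXCR4, had 23.6, 68.3 and 17.7 CPM for the parental line, 15.8, 22.3 and 17.4 for F5, 15.8, 15.9 and 17.3 for G5 and 1.91, 3.31 and 2.87 for H7, a difference of 1.44 ± 0.23. Lrrc17 (1.62 ± 0.24) and Spats2l (2.25 ± 0.35) were the other 2, and Spats2l was slightly lower at the middle passage in F5 and G5 and scarce in H7. Members of the lists among the 72 included Col3a1 (1.19 ± 0.19), Gas6 (1.42 ± 0.20), Lpl (1.33 ± 0.13), Foxo3 (0.72 ± 0.09), Mcm10 (-0.64 ± 0.10), Etv4 (-1.16 ± 0.13) and Hist1h3i (-0.71 ± 0.11).

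**Figure D5:**
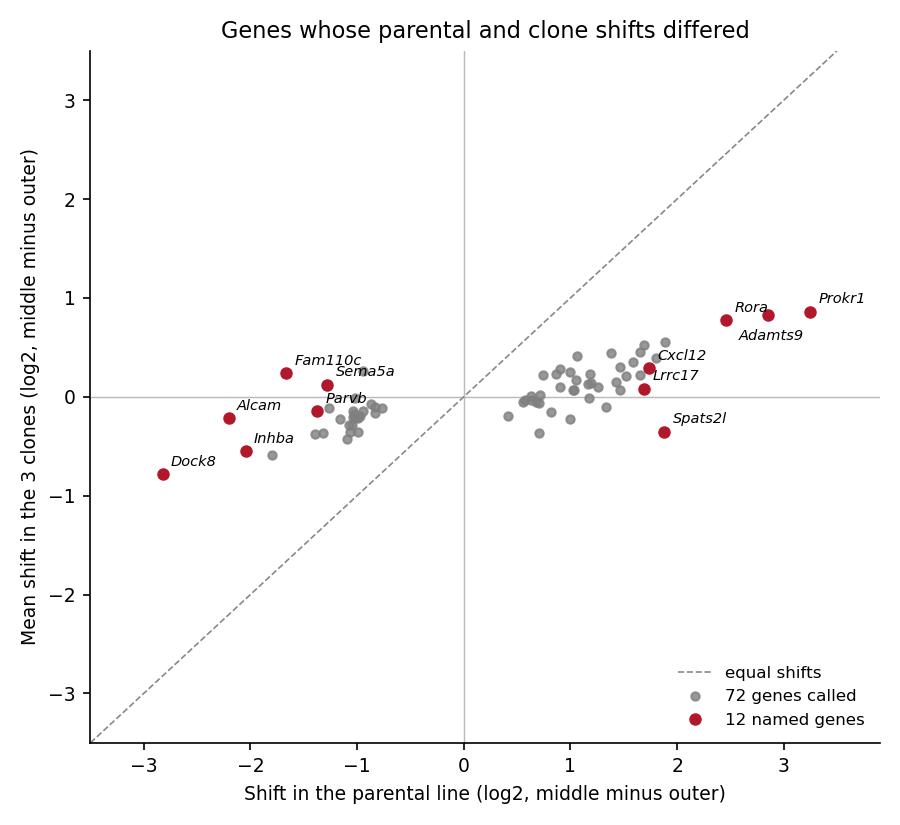
Mean shift in the 3 clones (y axis, log2, middle minus outer passages) against the shift in the parental line (x axis, log2) for the 72 genes past the threshold for that difference, with 12 named genes in red and a dashed line of equal shifts. Parental shifts run from -2.82 for Dock8 to 3.25 for Prokr1, and all genes lie nearer to 0 in the clones than in the parental line.

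No gene was past the threshold for any difference among the 4 lines with 3 degrees of freedom, where 1492 had an unadjusted p under 0.05. DESeq2 called 151 genes and limma on log2(TPM + 1) called 0 in that comparison. The shift of H7 against the mean of F5 and G5 also gave 0 genes in edgeR, with 603 at an unadjusted p under 0.05, against 4 in DESeq2 and 0 in limma. The smaller shifts of H7, at a median size of 0.19 for genes past the threshold, were thus not past the threshold against those of F5 and G5 for any gene in edgeR. Only 1 middle library per line stood behind each shift.

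The outer passages were compared with each other in the same way. The third and the first passages differed for 164 genes, 109 (0.741%) higher and 55 (0.374%) lower at the third passage, in edgeR's fit with line as a block. The count depended on single libraries: it was 43 without parental passage 6, 1350 without parental passage 7, 410 without parental passage 8, 54 without F5 passage 7, 103 without F5 passage 8 and 20 without F5 passage 9. It was 30 without G5 passage 7, 109 without G5 passage 8, 19 without G5 passage 9, 66 without H7 passage 7 and 28 without H7 passage 9. The other settings that moved it by over 1.5 times gave 419 genes in DESeq2, 329 with no filter on low counts, 105 and 86 in limma on log2(TPM + 0.1) and log2(TPM + 1), and 7 without line as a block. None of the 55 S-phase, 64 G2 and mitosis and 60 histone genes tested was among them. Fosb, an immediate early factor, was measured at 23.7, 4.54 and 4.83 CPM for the parental line, 15.4, 2.01 and 2.2 for F5, 19.4, 2.67 and 3.35 for G5 and 16.4, 4.9 and 4.09 for H7, a change from the first to the third of -2.41 ± 0.17 (adjusted p = 0.000185, edgeR). The first passage stood above the other 2 in each line, with the middle and the third close together, and Fosb was not past the threshold for middle against outer. Egr1 (-0.86 ± 0.07), Ier2 (-0.63 ± 0.04) and Srf (-0.35 ± 0.07) of the immediate early list fell too. Nlrp2 stood at 3.71, 0.632 and 0.395 CPM for the parental line, 12.6, 2.32 and 2.62 for F5, 6.47, 1.13 and 1.91 for G5 and 1.59, 0.221 and 0.393 for H7, a change of -2.22 ± 0.20 (adjusted p = 0.000689, edgeR). Prl2c3 (-1.63 ± 0.23), Fam83e (-1.37 ± 0.16) and the antisense gene Lrrc75aos2 (-1.50 ± 0.19), whose reads may include its overlapping partner, were the other lower genes named.

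Higher genes at the third passage were in part those high at the middle passage. Hlf rose from the first to the third by 2.41 ± 0.29 (adjusted p = 0.00461, edgeR), P2ry14 by 2.31 ± 0.26 (adjusted p = 0.00372, edgeR), Trp63 by 2.17 ± 0.40 (adjusted p = 0.0309, edgeR) and Cemip by 1.38 ± 0.14 (adjusted p = 0.00143, edgeR). In all 4 genes the third passage lay between the first and the middle of each line. Aldh3a1, an aldehyde dehydrogenase, was highest at the third passage in 3 lines, at 0.984, 3.87 and 7.42 CPM for the parental line, 0.153, 0.847 and 0.771 for F5, 0.212, 0.725 and 2.03 for G5 and 7.12, 9.54 and 13.5 for H7, a change of 1.88 ± 0.35. The pseudogene Rpl10a-ps1 (1.82 ± 0.28) is near-identical to its parent gene and uncertain. The clock genes Nr1d1 (-0.81 ± 0.06), Nr1d2 (-0.47 ± 0.06) and Ciart (-0.82 ± 0.12) fell, while the interleukin gene Il6 (1.86 ± 0.34) and the matrix genes Thbs2 (0.67 ± 0.06) and Vcan (0.62 ± 0.10) rose. Both comparisons use the same 8 outer libraries, and the p-values for the third against the first are not fully independent of the choice of split.

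By setting each outer passage apart, comparisons added after the data were seen, the cell cycle lists kept nearly the same medians. Against the third passages alone the S-phase list had a median of -0.43 and 22 lower members, and against first passages alone -0.43 and 48. The G2 and mitosis list had -0.44 with 45 lower members and -0.36 with 51. Histones had -0.46 with 26 and -0.47 with 49. Other lists lost more members against the third passages alone: matrix proteins other than collagens went from 17 higher to 3, lysosome and autophagy from 15 to 2, imprinted genes from 9 to 3, YAP and TEAD targets from 9 to 2, immediate early genes from 10 to 1 and growth factor receptors and ligands from 7 to 0. The medians of the first 3 went from 0.28 to 0.21, 0.13 to 0.08 and 0.31 to 0.21. Those of the last 3 went from 0.13 to 0.17, -0.09 to 0.02 and 0.17 to 0.09. In the clone libraries alone the same 6 lists had 11, 9, 5, 7, 6 and 4 higher members, and growth arrest genes 5. Over all genes, 317 were higher and 357 lower against the third passages alone, on 8 libraries in place of 12. The main fit had 2041 and 2020, so the loss of calls was not particular to these lists.

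Classes of transcript differed in the balance of higher and lower genes. Among 12054 protein-coding genes 1834 were higher and 1929 lower, with a median shift of 0.00254. Among 958 transcript models still awaiting experiment (TEC in the annotation) 92 were higher and 28 lower, with a median of 0.11, and among 145 sense intronic models 18 were higher and 5 lower, with a median of 0.15. Of 344 lincRNA genes 29 were higher and 21 lower, of 273 antisense genes 19 and 12, and of 218 processed transcripts 20 and 9. Of 373 processed pseudogenes 10 were higher and 12 lower, with a median of 0.02. Every other class had under 50 genes tested, and some of these had a negative median, among them 5 rRNA genes (-0.32), none of which was past the threshold. Protein-coding genes held 77.6% to 79.3% of counts in the middle libraries and 79.0% to 82.1% in the outer libraries. Mitochondrial transcripts held 2.26% to 2.95% and 2.02% to 4.00% of counts. The part of these shares in the shifts described was not tested.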

How the data were processed

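Gene expression was measured by RNA-seq in 12 libraries from 4 NIH3T3 lines at 3 passages each. Per the labels' protocols, total RNA was depleted of ribosomal RNA, made into stranded libraries with an Illumina kit and sequenced in paired ends. The authors deposited estimated counts per gene (expected counts) for 48795 genes and, in a second table, TPM values. Reads were placed on GRCm38, per the submitters' processing notes. The names of the aligner, counter and annotation, and whether strand was used, were not given in the sources used here. Most deposited counts over 0.5 were whole (86.9%, to within 0.01), and all were rounded for the fits. Symbols and coordinates come from GENCODE release 21 for mouse (GRCm38), which matched 48435 of the gene IDs.

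Genes were filtered with edgeR's filterByExpr by line and scaled with TMM factors, and 14704 were kept. The fits used edgeR 4.0.16 (glmQLFit and glmQLFTest) in R 4.3.3 with Benjamini-Hochberg adjustment over all genes kept. Alternatives used DESeq2 1.42.0 and limma 3.58.1, the latter on log2(TPM + 1) and log2(TPM + 0.1). Line was a block in the fit of middle against outer passages, with 7 residual degrees of freedom. A line by middle interaction gave the difference between lines, and place in the order of passages gave the third against the first. A shift is the log2 CPM of the middle minus the outer libraries, printed as estimate ± standard error from the fit over 12 libraries. Shifts of a single line are the middle library's log2 CPM minus the mean of the 2 outer libraries. Total counts were 22088695 to 31329735 per library, so that 1 CPM stood for at least 22 counts. The fits were tested on simulated data.

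Gene lists were described by counts and medians. The split, the lists and the comparisons were chosen with earlier results of these data known. The text names the 12 genes each way with the largest shift shared by all lines, the 4 or fewer members with the smallest p from every list, and, for line differences and for the third against the first, the 6 and 5 genes each way with the largest difference, with other list members added after their values were seen, and Aebp1. Genes of mean under 1 CPM and predicted or clone-named genes were not named by size. A few genes that the rule would name are not reported here.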

Additional observations from a re-analysis of the deposited data

Results flagged for a closer look

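The shifts of the middle passage in the 4 lines were looked at together for each of the 24 genes with the largest shared shift and for each gene list, 62 sets of 4 values in all, and a line was picked out where its gap to the nearest other line took up more of the whole range than Dixon's 95% critical value for 4 values allows. Chance alone picks out about 1 set in 20. The sets share the same 12 libraries and some lists share genes, so they are not independent. The number picked out therefore cannot be compared with that rate. Of the genes, Fam19a5 was picked out for its G5 shift of -4.72, where the middle library held 0.0907 CPM, a handful of counts, and Ripk2 for its parental shift of -1.66. Of the lists, 8 were picked out, each for the parental line. The parental median shift was -0.75 for MYC targets and ribosome assembly, -0.19 for cytosolic ribosomal proteins, 0.38 for FOXO targets and -0.23 for immediate early and ERK feedback genes. It was 0.78 for interferon-stimulated genes, -0.40 for the ATF4 and amino acid response, -0.39 for heat shock and -0.43 for NRF2 and glutathione genes. In all 8 lists the parental median was farther from 0 than that of any clone.

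For the 12 genes named, the parental minus the mean clone shift was past the threshold in edgeR's interaction fit, which is a description, since the split that defines the shifts was chosen on these libraries. The difference was -2.04 for Dock8, -2.0 for Alcam, -1.90 for Fam110c, -1.49 for Inhba, -1.40 for Sema5a and -1.23 for Parvb. It was 2.39 for Prokr1, 2.25 for Spats2l, 2.01 for Adamts9, 1.68 for Rora, 1.62 for Lrrc17 and 1.44 for Cxcl12. Each value rests on parental passage 7 as the only middle library of its line.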

How the results depend on the processing

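For middle against outer passages the main counts were 2041 higher and 2020 lower genes. Without line as a block they were 397 and 598. With line kept and the passage number added as a further block they were 3085 and 3172. The pairing by number was not stated in the labels: passage 7 is the middle passage of the parental line but the first of each clone. Clone libraries alone gave 1101 and 1220 genes, and the third passages alone as the outer group, added after the data were seen, 317 and 357. Leaving out each library in turn gave 1074 to 2155 higher and 1222 to 2196 lower genes. The fit of any difference between lines gave 0 genes, but 151 in DESeq2, 45 with no filter on low counts, and 0 to 1 with an outer library left out. Parental against clone shifts gave 72 genes, 421 in DESeq2, 333 with no filter, 0 on log2(TPM + 0.1), and 1 to 135 with an outer library left out. The shift of H7 against F5 and G5 gave 0 genes, 4 in DESeq2, and 0 with any library left out. The comparison of the third with the first passages gave 164 genes, 419 in DESeq2, 329 with no filter, 86 on log2(TPM + 1), 105 on log2(TPM + 0.1), 7 without line as a block, and 19 to 1350 with a library left out. The cause of these differences was not tested. Rpl22 turned sign in both TPM fits, at -0.0374 and -0.0375 with pseudocounts of 1 and 0.1. Among refitted values of named genes for middle against outer, 3783 kept direction and side of the threshold and 288 lost the threshold, 84 of them against the third passages only and 88 without line as a block. For parental against clone shifts 69 refitted values lost the threshold and 99 kept it, and for the third against the first 35 lost and 155 kept it. Upper-quartile factors moved the median shift of all genes to 0.03, with 2270 higher and 1763 lower genes. Genes under 1 CPM rest on few counts per library, which limits single values such as those of Optc, Timp4 and Ifit1.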
